A study of Drosophila melanogaster with 3 samples.

Results

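The nuclear genes for proteins of the mitochondrial ribosome were examined in a map of CG6163-eGFP on the Drosophila melanogaster genome. They were all protein-coding genes whose symbol starts with mRpL or mRpS followed by a digit, which gave 73 of 13945 protein-coding genes on the main chromosome arms, with 26 genes for the small subunit and 47 for the large subunit by their symbols. The map was made by chromatin immunoprecipitation and sequencing (ChIP-seq) with an antibody against GFP, from whole prepupae of the strain CG6163-GFP. These flies carry an insertion directed at CG6163, from which a fusion of that protein with eGFP is made, and all 3 libraries were biological replicates of this 1 group. Whole animals mix all tissues, the exact stage and the sex were not recorded, and the reads come from the tagged protein, so the map holds neither a single cell type nor the untagged protein. No second genotype or treatment was compared, and the control experiment named in the labels was not used here.

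Mitochondria keep a small genome of their own, and the proteins it encodes are made on a dedicated ribosome inside the organelle. The RNA of that ribosome comes from the mitochondrial genome, whereas its proteins are encoded in the nucleus, translated in the cytosol and imported. Many of them have a counterpart in the bacterial ribosome, and others are found only in mitochondria. The ribosome is needed to make core subunits of the respiratory chain, and fly mutants in some of its proteins develop slowly.

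The authors' conservative peak list, with 10894 peaks on the dm6 assembly, was the main set. A gene is called bound here when a summit, the base of highest enrichment in a peak, lay within 500 bp of any of its annotated transcript starts. Of the mitochondrial ribosomal genes, 22 of 73 were bound (30.1%, exact 95% binomial interval 19.9 to 42.0), beside 24.2% of all protein-coding genes. At 12 of the 73 (16.4%, interval 8.79 to 27.0) the peak also overlapped a thresholded peak in each of the 3 libraries, beside 12.1% of all protein-coding genes. Both intervals include the share of all protein-coding genes. Short genes with 1 start, described below, were set apart after seeing the data. Among them, the members' shares were above the background (27.3% beside 12.8%, and 15.2% beside 6.65%). That margin narrowed when a shared promoter, defined below, was required too (33.3% beside 25.0%, and 18.8% beside 14.2%). The members that were bound differ widely among themselves, and 4 of them carried peaks among the 19 strongest of the genome.

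The sequences at 8 summits that were found in all 3 libraries are shown because their base composition set them apart from the less supported summits described later. Each window reaches 50 bp to either side of the summit of the conservative peak, in dm6 coordinates from the RefSeq genome, read 5′ to 3′ on the strand of the ribosomal gene. Capitals mark unbroken runs of 6 or more A or T bases.
mRpS23 (chr2L:13835409-13835509, minus strand): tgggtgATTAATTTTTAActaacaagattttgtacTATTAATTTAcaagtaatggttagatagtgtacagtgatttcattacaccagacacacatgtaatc
mRpS10 (chr3R:15229489-15229589, plus strand): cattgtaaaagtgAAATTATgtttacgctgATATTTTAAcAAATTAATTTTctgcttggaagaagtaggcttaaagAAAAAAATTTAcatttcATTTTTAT
mRpL24 (chr2L:4945454-4945554, minus strand): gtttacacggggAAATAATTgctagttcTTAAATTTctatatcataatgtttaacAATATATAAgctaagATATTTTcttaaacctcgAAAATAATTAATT
mRpL20 (chr3L:13018104-13018204, minus strand): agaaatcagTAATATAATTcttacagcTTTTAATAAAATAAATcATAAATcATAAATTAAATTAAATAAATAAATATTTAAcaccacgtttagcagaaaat
mRpS2 (chr2L:4850533-4850633, minus strand): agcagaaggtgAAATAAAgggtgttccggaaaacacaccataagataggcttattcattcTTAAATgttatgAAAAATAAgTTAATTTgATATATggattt
mRpS6 (chr3L:4364433-4364533, plus strand): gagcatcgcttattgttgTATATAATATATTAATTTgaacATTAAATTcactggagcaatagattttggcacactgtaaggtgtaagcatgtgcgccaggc
mRpL2 (chr3L:11120480-11120580, plus strand): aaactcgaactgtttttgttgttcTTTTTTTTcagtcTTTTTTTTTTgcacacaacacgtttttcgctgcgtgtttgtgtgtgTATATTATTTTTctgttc
mRpS24 (chr3R:24163778-24163878, minus strand): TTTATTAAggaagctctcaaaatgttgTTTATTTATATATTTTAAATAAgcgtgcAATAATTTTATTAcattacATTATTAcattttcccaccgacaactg
All 8 windows lie outside annotated exons. The window at mRpL23, also found in all libraries, overlapped an exon of that gene and is not shown. Those at mRpL41, mRpL34 and mRpS18B are not shown either. The lack of exon sequence in the windows shown therefore does not describe all well-supported summits. The longest run was 30 bases at mRpL20 and 22 bases at mRpS24, whereas mRpS2 had 5 runs of at most 8 bases. For contrast, the window of mRpL16, whose conservative peak overlapped no thresholded peak of any library, is given as the only one of 6 such windows without exon sequence; it was chosen after its values were seen.
mRpL16 (chrX:1890066-1890166, plus strand): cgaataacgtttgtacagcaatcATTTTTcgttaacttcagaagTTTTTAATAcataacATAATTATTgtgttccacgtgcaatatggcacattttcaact
It held 3 runs, and its 69.3% A/T lay within the range of the 8.

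The strongest peaks of the group lay at mRpS23, mRpS10, mRpL41 and mRpL23. At mRpS23 (FBgn0260407), a small-subunit protein without a bacterial counterpart, the signal, which is the authors' enrichment value per peak, was 2935.3, rank 6 of the list (chr2L:13835316-13835616). In the libraries' own lists it was 981 in replicate 1, 1171 in replicate 2 and 797 in replicate 3, at ranks 8, 4 and 9. Signals are comparable within a list but not between lists, so the ranks are the measure that carries over.

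At mRpS10 (FBgn0038307), the counterpart of a protein in the head of the bacterial small subunit, the signal was 2610.3, rank 13 (chr3R:15229383-15229677). Its signals were 937, 1021.5 and 711 in replicates 1, 2 and 3, at ranks 10, 11 and 21. mRpL41 (FBgn0034001), a large-subunit protein known only from mitochondria, had a signal of 2561.3, rank 14 (chr2R:15217594-15217910). Replicate 3 placed mRpL41 highest of the members, at rank 7 with 818, while replicates 1 and 2 placed it at ranks 24 and 12 with 771 and 1009.4. mRpL23 (FBgn0035335), whose bacterial counterpart lies at the exit of the tunnel for the nascent chain, had a signal of 2397.3, rank 19 (chr3L:2373456-2373743). Its signals were 811, 896 and 724, at ranks 15, 17 and 19. These 4 peaks were thus within the first 24 of every library.

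A second tier was formed by mRpL24, mRpL20 and mRpS2. mRpL24 (FBgn0031651), another protein whose bacterial counterpart sits near the tunnel exit, had a signal of 962, rank 241 (chr2L:4945377-4945618), with 314, 367 and 281 in replicates 1, 2 and 3. mRpL20 (FBgn0036335), whose bacterial counterpart is needed to assemble the large subunit, had 828, rank 316 (chr3L:13018026-13018269), with 276, 324 and 261. Replicates 1, 2 and 3 placed mRpL24 at ranks 276, 228 and 210 and mRpL20 at ranks 341, 300 and 245. mRpS2 (FBgn0031639), a small-subunit protein, had 521, rank 748 (chr2L:4850480-4850675), with 139, 160 and 226 at ranks 1188, 1085 and 341. By rank, replicate 3 placed all 3 genes highest.

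The other 5 members found in all 3 libraries lay in the body of the list. mRpS6 (FBgn0035534) had a signal of 284, rank 2086 (chr3L:4364374-4364521), with 114, 114 and 81.9 in replicates 1, 2 and 3. mRpL2 (FBgn0036135), whose bacterial counterpart lies next to the site of peptide bond formation, had 283, rank 2103 (chr3L:11120458-11120572), with 110 in replicate 1 and 36.8 in replicate 3. Its ranks were 1764, 2287 and 5456 in replicates 1, 2 and 3, the last of 5844 peaks, so support for mRpL2 there was near the end of the list. mRpL34 (FBgn0083983) had 245, rank 2562 (chr2R:16098587-16098956), with 64.0, 78.3 and 84.1. mRpS24 (FBgn0039159) had 193, rank 3581 (chr3R:24163643-24164012), with 68.2, 79.9 and 55.9. mRpS18B (FBgn0032849), 1 of 3 relatives of a bacterial small-subunit protein, had 173, rank 4163 (chr2L:20097135-20097504), with 66.6, 65.3 and 43.6.

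The 3 libraries ordered these 12 members alike. Over the 12 signals the Spearman coefficient was 0.986 between replicates 1 and 2, 0.86 between replicates 1 and 3, and 0.895 between replicates 2 and 3, given as a description over genes chosen for being in all 3 lists. Of the 36 library summits compared, 30 lay within 20 bp of the conservative summit, the median distance was 5.5 bp and the largest was 50 bp. Counted in the libraries' own lists, 16 members were bound in replicate 1, 15 in replicate 2 and 15 in replicate 3 (15.3 ± 0.577, or 21.0% ± 0.791, SD, n = 3), beside 18.9%, 19.7% and 17.3% of all protein-coding genes. The thresholded lists held 7449, 7920 and 5844 peaks, so the smallest list did not bind fewer members than replicate 2.

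**Figure D1:**
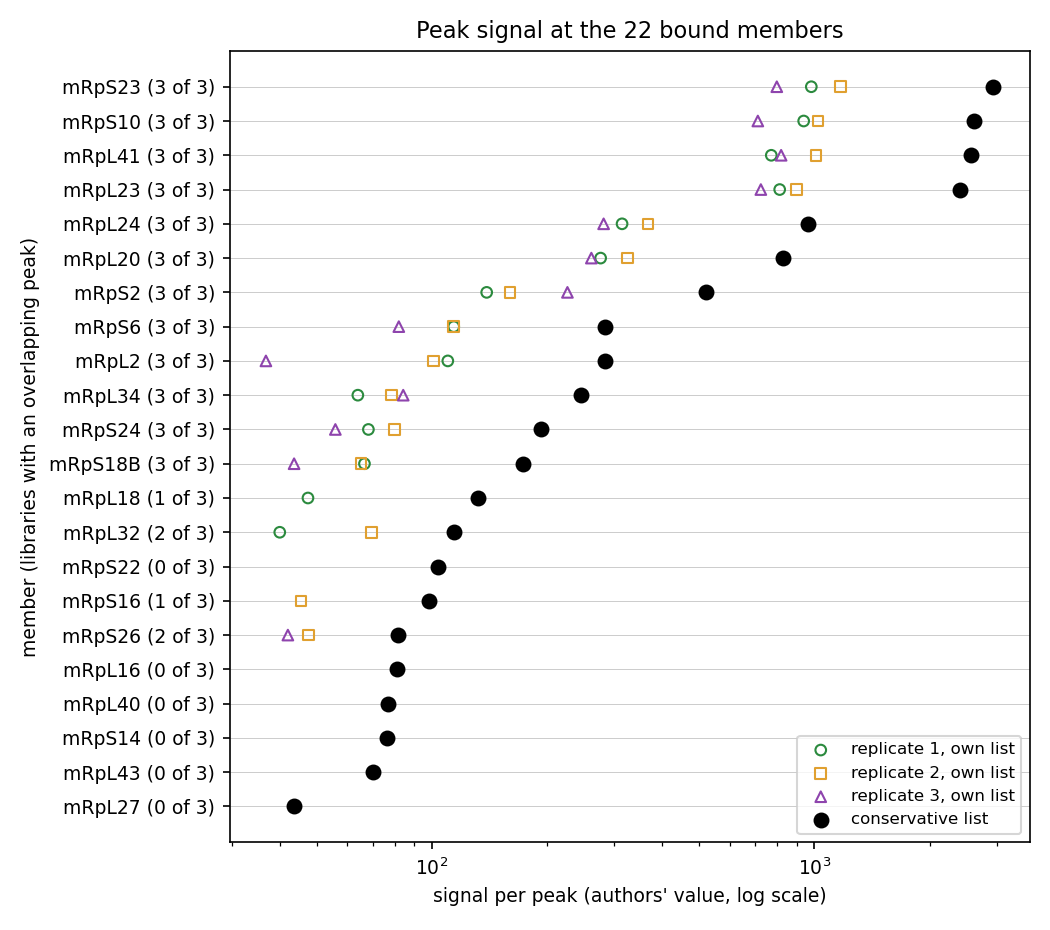
Signal per peak on a log scale at the 22 bound members, in the conservative list (filled black) and in the own lists of replicates 1, 2 and 3 (open symbols, where the library has an overlapping thresholded peak). The 4 strongest members lie between 2397.3 and 2935.3 in the conservative list, and the 6 members with no library symbol lie between 43.6 and 104.

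The remaining 10 bound members had weaker and less supported peaks. Their signals were 132 at mRpL18, 114 at mRpL32, 104 at mRpS22, 98.4 at mRpS16, 81.5 at mRpS26, 81.2 at mRpL16, 76.8 at mRpL40, 76.1 at mRpS14, 70.2 at mRpL43 and 43.6 at mRpL27. The highest of them, 132, was below the lowest of the 12, 173, and the medians were 674 for the 12 and 81.4 for the 10. Over all bound protein-coding genes the corresponding medians were 305 with support in all 3 libraries and 117 without it, so stronger peaks had more support genome-wide too, and 50.1% of all bound protein-coding genes had that support. Overlapping library peaks were present at mRpL32 in replicates 1 and 2 (signals 40.0 and 69.6), at mRpS26 in replicates 2 and 3 (47.5 and 42.0), at mRpL18 in replicate 1 (47.4) and at mRpS16 in replicate 2 (45.5). No library had one at mRpS22, mRpL16, mRpL40, mRpS14, mRpL43 or mRpL27.

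The authors' q-value was above 0.05 at 8 of the 22 bound members, beside 33.7% of the whole conservative list. All 8 were among these 10 members, with 0 among the 12. The share over the whole list was not split by library support. Only mRpL18 and mRpL32 among the 10 passed that limit. All 10 peaks had the list's usual width of 370 bp, which 75.6% of all peaks had, whereas 9 of the 12 were narrower, down to 115 bp at mRpL2. Of the 22 bound members, 6 (27.3%, interval 10.7 to 50.2) belonged to the upper 10% of bound protein-coding genes by signal, which starts at 578, beside 10% by construction over all bound genes. These 6 were the 4 strongest with mRpL24 and mRpL20. The median over all 22, 183, was close to the 173 of all bound protein-coding genes.

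Most bound members stood at divergent promoters. A promoter is called shared here when another gene starts on the opposite strand 0 to 500 bp upstream of a start of the member. Such a partner was present at 20 of the 22 bound members (90.9%, interval 70.8 to 98.9), beside 43.2% of all bound protein-coding genes, and at 11 of the 12 found in all 3 libraries, beside 47.6%. Among the bound members, mRpL41 and mRpL40 had none. With the starts at most 250 bp apart, 8 of the 22 had a partner, a share not computed for other genes. This arrangement is however common to the whole family, since 53 of 73 members (72.6%, interval 60.9 to 82.4) had a shared promoter, beside 29.6% of all protein-coding genes.

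The bound shares were also compared within each promoter arrangement. Of the 53 members with a shared promoter, 20 were bound (37.7%, interval 24.8 to 52.1), beside 35.2% of protein-coding genes of that kind. Of the 20 members without one, 2 were bound (10%, interval 1.23 to 31.7), beside 19.5%. With support in all 3 libraries required, the shares were 20.8% with a shared promoter (11 of 53), beside 19.4%, and 5.0% without one (1 of 20), beside 9.01%. Each of these 4 intervals includes its background share. Those of the 20 members without a shared promoter are too wide to show likeness to other genes. These backgrounds were not matched for gene length or number of starts.

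**Figure D2:**
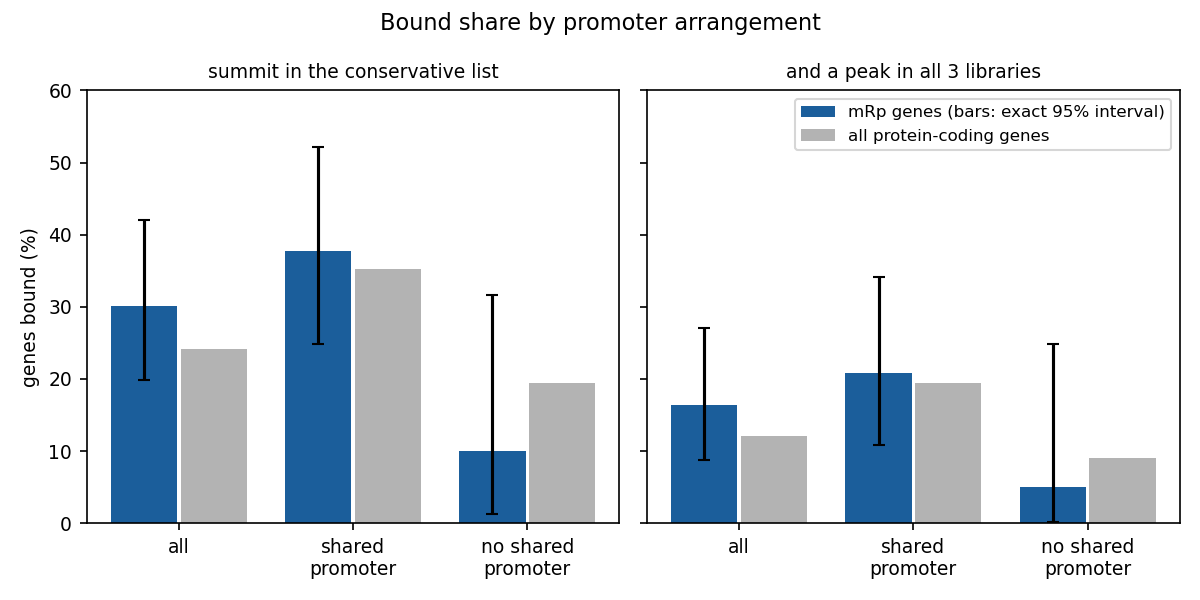
Percentage of genes with a summit in the conservative list within 500 bp of a start (left) and with support in all 3 libraries in addition (right), for mitochondrial ribosomal genes (blue, with exact 95% binomial intervals) and all protein-coding genes (grey), over all genes and split by promoter arrangement. In both groups of genes a shared promoter went with a higher bound share, 37.7% and 35.2% in the left panel, and every interval covers the grey bar beside it.

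The partners were all protein-coding and had varied functions. In order of signal, mRpS23 was paired with CenG1A, which encodes a GTPase-activating protein for Arf, with the starts 492 bp apart, and mRpS10 with the arginine methyltransferase gene Art3 at 257 bp. mRpL23 lay next to CG9004 at 24 bp, measured from the outermost of its 3 starts. mRpL24 was paired with betaggt-I, for a subunit of a protein prenyltransferase, at 218 bp, and mRpL20 with Icmt, for the methyltransferase that acts on prenylated proteins, at 399 bp. mRpS2 was paired with Mon1, for a subunit of the exchange factor of Rab7, at 222 bp.

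Among the weaker of the 12, the partners were Cip4 for mRpS6 (448 bp), the forkhead gene FoxK for mRpL2 (64 bp), the dystroglycan gene Dg for mRpL34 (384 bp), Apc2, a component of the complex that degrades Armadillo, for mRpS24 (421 bp) and Kua for mRpS18B (328 bp). Among the less supported members, mRpL18 started 20 bp from Taz, which encodes the cardiolipin-remodelling enzyme tafazzin, and mRpL32 started 264 bp from qless, which is needed for the coenzyme Q side chain. The others were CG5003 for mRpS22 (392 bp), the zinc-finger gene cg for mRpS16 (97 bp), CG13698 for mRpS26 (430 bp), the histone methyltransferase gene trr for mRpL16 (306 bp), the acetyltransferase subunit gene Naa15-16 for mRpS14 (21 bp), CG30183 for mRpL43 (281 bp) and CG15435 for mRpL27 (91 bp).

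Starts were 272 bp apart at the median of the 20 bound shared promoters, 328 bp at the 11 found in all 3 libraries, 242 bp at the 33 unbound ones and 242 bp over all 4134 such protein-coding genes. The ranges, 20 to 492 bp for bound and 28 to 499 bp for unbound members, overlapped almost wholly.

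Summits lay upstream of the ribosomal gene in 20 of 22 cases (90.9%, interval 70.8 to 98.9), beside 73.8% of all bound protein-coding genes. The interval includes that share, and the comparison was not split by promoter arrangement. The median position was −150 bp, beside −100 bp, and the libraries' own lists gave −131, −174 and −176 bp (−160 ± 25.4, SD, n = 3). The chromatin had been sheared to 200 to 800 bp, per the labels. The summit fell between both starts at 14 of 20 shared promoters (70.0%), beside 51.7% of all bound protein-coding genes with a shared promoter. It was nearer to the partner's start in 13 and nearer to the ribosomal gene's start in 7.

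Which of the paired genes a peak belongs to therefore cannot be told apart from position alone at these sites. At mRpS23 the summit lay 387 bp upstream of the ribosomal gene but 105 bp from CenG1A, and at mRpL20 it lay 287 bp upstream but 112 bp from Icmt. At mRpS6 and mRpS18B it lay 67 bp from the ribosomal gene and 381 and 261 bp from the partner. mRpS10 was balanced, with 126 bp to its own start and 131 bp to that of Art3. At mRpL2 the summit lay beyond the partner's start, inside FoxK, and it lay beyond the partner's start also at mRpL18, mRpS14, mRpL43 and mRpL27. At mRpL23 it lay inside the ribosomal gene, 83 bp downstream of the nearest of its 3 starts, which is not the outermost one. When a summit was given only to the gene with the nearest start, 9 of 73 members were bound (12.3%), beside 19.7% of all protein-coding genes.

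**Figure D3:**
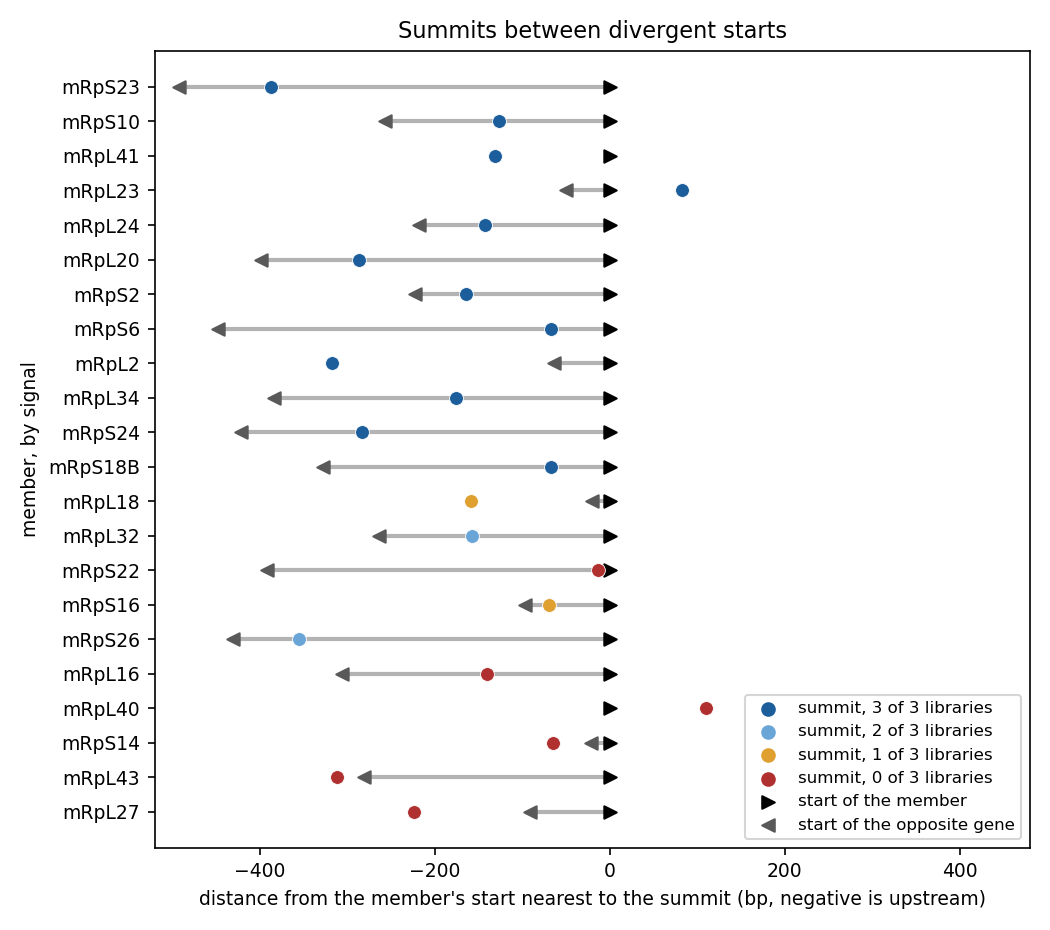
Position of the strongest conservative summit (circles, coloured by the number of libraries with an overlapping peak) relative to the start of each bound member nearest to it (black triangle at 0), with the start of the opposite gene where it lies within 500 bp (grey triangle). Members run from the highest signal at the top to the lowest, and 14 of the 20 summits with a partner lie between the 2 starts.

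The ribosomal genes are short and simply annotated. Their median length was 909 bp, beside 2166 bp of all protein-coding genes, and 67 of 73 (91.8%) had 1 annotated start, beside 73.5%. Among genes with 1 start and a length of at most 3000 bp, 18 of 66 members were bound (27.3%, interval 17.0 to 39.6), beside 12.8% of such protein-coding genes, and 10 of 66 were supported in all 3 libraries (15.2%, interval 7.51 to 26.1), beside 6.65%. With a shared promoter required as well, 16 of 48 members were bound (33.3%, interval 20.4 to 48.4), beside 25.0%, and 9 of 48 were supported in all 3 libraries (18.8%, interval 8.95 to 32.6), beside 14.2%. The intervals of the first pair lie above their background shares and those of the second pair include them, so the margin over genes of like structure narrowed once divergent promoters were compared with each other. The limit to 1 start was chosen after seeing the data.

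The 12 well-supported summits lay in A/T-rich sequence. A/T made up a median of 73.2% of the window of 50 bp to either side of these summits (lowest 63.4% at mRpS6, highest 83.2% at mRpL20). At the other 10 it made up 51.5% (40.6% at mRpL18 to 69.3% at mRpS22 and mRpL16). Of the 12, 12 reached 60% A/T, and of the 10, 2 did. Over all protein-coding genes, the strongest peak at each was taken. Of these peaks, 64.3% of the 1287 found in all 3 libraries and 33.6% of the 1407 others reached 60%, so the direction of the contrast is that of promoters in general. The corresponding medians over all promoter summits were 64.4% in all 3 libraries and 54.5% in fewer. Position differed between the 12 and the 10 as well. The 4 bound members with a summit inside an exon were all among the 10. They were mRpL18 (40.6%), mRpS14 (42.6%), mRpL43 (55.4%) and mRpL27 (52.5%). Of the 15 bound members with a summit inside no gene, 10 were among the 12. Shares of summits inside an exon or inside no gene were not computed for other genes. Outside exons, mRpS16 (42.6%), mRpL40 (48.5%), mRpS26 (50.5%) and mRpL32 (59.4%) were also below 60%. Whether position accounts for the contrast was not tested.

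Mean A/T of the 12 was highest at the summit, at 73.3%, and fell gradually to either side. It was 63.4% at 100 bp upstream and still 65.0% at 180 bp downstream. Windows centred 300 bp to either side had medians of 53.5% around the 12 and 51.5% around the 10. Every one of the 12 summits exceeded the mean of its own flanks, beside 4 of the 10. A rise at the summit was not particular to these genes. Over the peaks of all protein-coding genes supported in all 3 libraries, mean A/T was 63.1% at the summit, 59.2% at 300 bp upstream and 54.1% at 300 bp downstream. Within 500 bp of the start, the summit window of the 12 had more A/T than a median of 86.8% of all windows (56.9% at mRpS6 to 99.3% at mRpS10), beside 40.7% for the 10. The summit lay a median of 25.0 bp from the most A/T-rich window for the 12, 1 bp from it at mRpS10 and 3 bp at mRpL23, but 241 bp at mRpS23 and 217 bp at mRpS6. For the 10 this distance was 131 bp. Summits above their own flanks, the share of windows below the summit and this distance were not computed for other genes.

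An A/T-rich stretch near the start did not by itself go with a peak. The most A/T-rich window of that size within 500 bp of a start held a median of 80.7% at the 12 (72.3% to 87.1%), 76.7% at the other 10 bound members (67.3% to 87.1%) and 79.2% at the 51 unbound members (66.3% to 89.1%). Promoters, from 250 bp upstream to 50 bp downstream of the start, held a median of 67.3% at the 12, 61.7% at the 10, 65.3% at the unbound members and 62.0% over all protein-coding genes. Unbound ribosomal genes had stretches as A/T-rich as those under the strongest peaks.

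**Figure D4:**
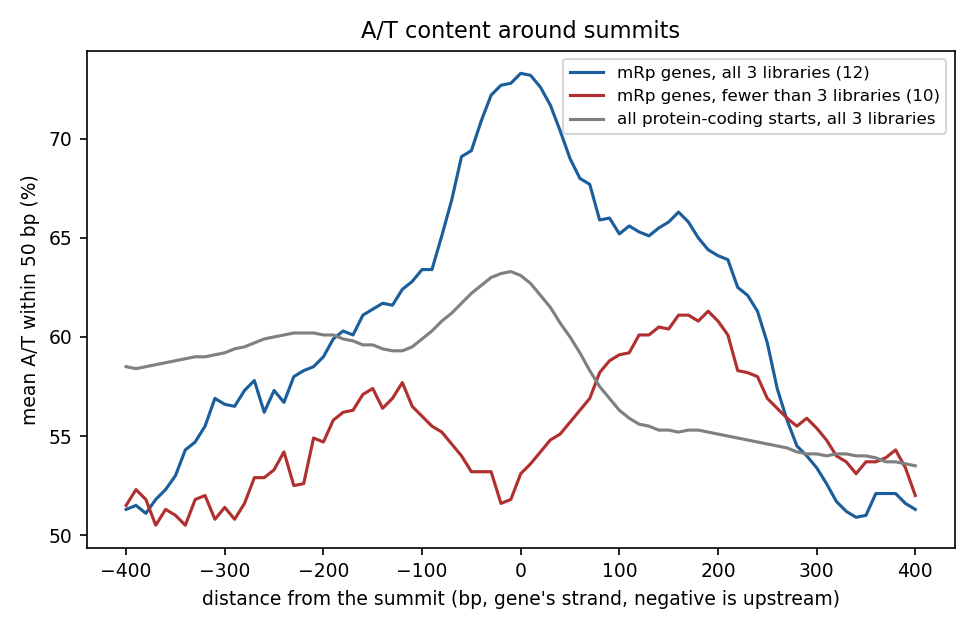
Mean A/T content in windows of 50 bp to either side of positions at distances from the summit along the strand of the gene. Curves are for the 12 mitochondrial ribosomal genes with support in all 3 libraries (blue) and the 10 other bound ones (red). The grey curve is for 1287 peaks with support in all 3 libraries, each the strongest at a protein-coding gene. The blue curve reaches 73.3% at the summit, the red curve is at 53.1% there, and the grey curve is at 63.1%.

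**Figure D5:**
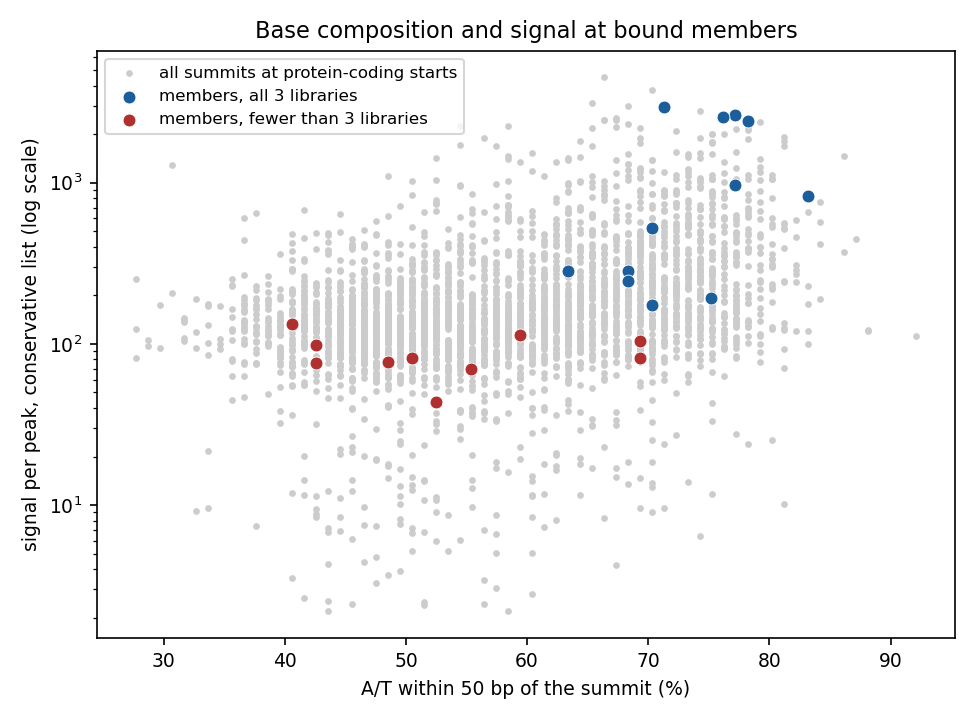
Signal in the conservative list on a log scale against the A/T content within 50 bp of the summit, for bound mitochondrial ribosomal genes with support in all 3 libraries (blue) and in fewer (red), over all summits at protein-coding starts (grey). The blue points lie at 63.4% to 83.2% A/T, and the red ones lie at 40.6% to 69.3% and below a signal of 173.

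Of 13 short words, among them core promoter words of Drosophila, each was searched as exact letters on both strands in the promoter. CAGCTG, an E-box word of core promoters, occurred in 40 of 73 member promoters (54.8%), beside 17.7% of all protein-coding promoters. It was found in 8 of the 12, in 4 of the other 10 and in 28 of the 51 unbound members, and was thus as common without a peak. Of its 59 occurrences within 250 bp of the members' outermost starts, 39 lay between 100 bp upstream and 50 bp downstream of the start, with a median position 16.5 bp downstream.

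CAGCTG occurred in 0 of the 22 summit windows, beside 6.04% of all summits at protein-coding starts, a share too low for 22 windows to show a difference. At the 17 bound members with a CAGCTG within 500 bp of a start, the nearest was a median of 124 bp from the summit (78.5 to 550 bp), a distance not computed for other genes. TATCGATA, the DNA replication-related element, which holds the shorter word CGATA, was in 15 member promoters (20.5%), beside 9.36%, and also in 0 of the 22 summit windows, beside 1.84%. mRpS23, mRpS18B and mRpL20 were the ones among the 12 with it in the promoter.

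GAGAG, the word of the GAGA factor, was in fewer member promoters than in promoters at large (16.4%, beside 29.7%), as was the initiator word TCAGT (38.4%, beside 51.5%). The TATA word TATAAA was as frequent as elsewhere, at 46.6% beside 45.8%. CGATA was in 58.9% beside 47.4%, AGATAA in 23.3% beside 18.7%, GTATTTTT in 12.3% beside 7.39%, GGTCACAC in 11.0% beside 7.7%, CATCNCTA in 11.0% beside 6.42%, TGCGCA in 8.22% beside 6.96% and CACGTG in 6.85% beside 4.2%. CACGTG was in 1 of the 12, in 3 of the other 10 bound members and in 1 of the 51 unbound members, and it lay in 2 summit windows of the 10. CCGGAAG, a word of ETS-family factors, was in 0 of the 73, beside 1.09%. None of the 13 words was present in more than 2 of the 12 summit windows: TATAAA at mRpL23 and mRpS24, AGATAA at mRpL41 and mRpL34, TCAGT at mRpL20 and mRpL2, GTATTTTT at mRpL41 and GAGAG at mRpS24. The words are descriptions of sequence, and no binding by the factors named was measured.

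Both subunits and most chromosome arms contributed bound members. Of the small-subunit genes, 10 of 26 were bound (38.5%, interval 20.2 to 59.4) and 6 were found in all 3 libraries. Of the large-subunit genes, 12 of 47 were bound (25.5%, interval 13.9 to 40.3) and likewise 6 were found in all 3. Proteins with a bacterial counterpart had 16 of 46 genes bound (34.8%, interval 21.4 to 50.2) and those without one 6 of 27 (22.2%, interval 8.62 to 42.3). The intervals overlap in each pair. Bound members numbered 5 of 12 on 2L, 5 of 12 on 2R, 5 of 17 on 3L, 5 of 21 on 3R and 2 of 11 on X, beside 22.7%, 24.1%, 24.8%, 23.9% and 26.5% of the protein-coding genes of these arms. Those found in all 3 libraries numbered 4, 2, 4, 2 and 0 in the same order of arms.

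The other 51 members had no conservative summit within 500 bp. Their nearest one lay at a median of 5603 bp, within 5000 bp for 25 of them and beyond 10000 bp for 15. The farthest was mRpS5, with 1658340 bp. Such distances were not computed for other genes. The summits nearest to the 500 bp limit were at mRpS25 (533 bp), mRpS31 (563 bp), mRpL33 (627 bp) and mRpL55 (667 bp). The one near mRpS31 had a signal of 279 and support in all 3 libraries, that near mRpL55 had 125, that near mRpL33 had 129 with support in 2, and that near mRpS25 had 123 with support in 0.

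The partner gene was bound although the ribosomal gene was not at mRpS31 (hzg), mRpL33 (norpA, the phospholipase C of photoreceptors), mRpL22 (if, an integrin subunit) and mRpL53 (AGO1, an Argonaute protein). At mRpL22 and mRpL53 the nearest summit was 1621 and 2196 bp away and the paired starts were 499 and 170 bp apart, so if and AGO1 were bound at other starts than the paired one. Thresholded peaks of a single library lay at 4 unbound members. They were at mRpL53 with a signal of 71.0 and mRpL28 with 40.4 in replicate 1, and at mRpL35 with 47.9 and mRpL21 with 40.3 in replicate 3. The shares of unbound genes with a bound partner or with a library peak were not computed for other genes. In the unthresholded ranked list that holds the conservative peaks, 24 of the 51 (47.1%) had a summit within 500 bp, beside 46.8% of all unbound protein-coding genes. The strongest signals of these had a median of 27.3 (3.6 to 92.8), beside 41.1. The share with a weak peak was thus close to that of unbound genes at large. Unbound genes of like length and number of starts were not compared.

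Other genes of mitochondrial gene expression were bound about as often as genes in general. Of 42 names listed for this purpose, 36 matched an annotated symbol, and 7 of these were bound (19.4%, interval 8.19 to 36.0, beside 24.2% of all protein-coding genes). Support in all 3 libraries was present at 5 of the 7, or 13.9% of the 36 (interval 4.67 to 29.5), beside 12.1%. PNPase, the polynucleotide phosphorylase that acts on mitochondrial RNA, had the highest signal, 3117.3, and ranked 4 in the list, above every ribosomal gene. Its signals were 1122.6, 1108.3 and 932 in replicates 1, 2 and 3. GatA, a subunit of the amidotransferase for mitochondrial glutamine tRNA, had 444, and the initiation factor gene mIF2 had 231. clu, needed for mitochondrial function, had 189, and mtSSB, the single-stranded DNA-binding protein of the mitochondrial genome, had 174. RNaseZ with 149 and scu with 88.0, both for proteins of tRNA processing, were supported in 1 library each.

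By role, 4 of 17 genes for transcription and RNA were bound, 1 of 9 translation factors, 1 of 4 genes for genome copying, 1 of 4 for tRNA charging and assembly, and 0 of 2 ribosomal proteins whose symbols do not follow the family's pattern. These were tko and bonsai, both of the small subunit. GatB and GatC, which encode the other subunits of the amidotransferase of GatA, were unbound, as were bsf and Lrpprc2, both for RNA-binding proteins of the pentatricopeptide repeat class.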

How the data were processed

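ChIP-seq of CG6163-eGFP was available as peak lists of 3 libraries, biological replicates of 1 group. Per the notes deposited with the lists, they use dm6, each library's list came from its own alignment and the series lists from all 3, and 1 shared file entered every list. The aligner, the peak caller and the replicates set against each other for the conservative list are not stated in the sources at hand, and are therefore not given here. Filtering by the authors used the irreproducible discovery rate (IDR), and the deposited score per peak, which rises as the IDR falls, started at 830. Signal values, deposited by the authors for each peak, were used only to describe and rank peaks within a list. Filters used the deposited −log10 values of the IDR and of the q-value. Read depth was not used here; precision is limited by the number of peaks per list, and intervals cover counting error only.

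Genes came from Ensembl release 115 (coordinates of dm6) and sequence from RefSeq. Background shares are over all protein-coding genes on the main chromosomes, members included. Library support needed 1 bp of overlap. The strongest peak per gene was described. All bound members were named, unbound members within 1000 bp of a summit, in a library's own list or with a bound partner were named, and all bound genes of the mitochondrial expression list with some unbound ones. Of that list, ico, mtRNApol, Oxa1, tam, mEFG2 and Noa1 matched no symbol. The members and lists were chosen with earlier results of these data known, so no test over them was made, and 1 group allows no contrast. Alternatives changed the window, starts, peak list, IDR and q-value limits, overlap rule and libraries. The calls were tested on simulated data. Scripts ran in Python 3.11.15, with SciPy 1.17.1 for intervals, pandas 2.3.3 and NumPy 2.4.6 for tables, and matplotlib 3.10.9 for plots.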

Additional observations from a re-analysis of the deposited data

How the results depend on the processing

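Of 34 values under alternative settings, 23 stayed close to the values reported and 11 moved. For counts, close meant within 1.5-fold. The 15 bound members found with a 200 bp window, or with an IDR of at most 0.001, thus still counted as close to 22. The 22 bound members became 9 when a summit counted only for the gene with the nearest start, which put their share below that of all protein-coding genes (12.3%, beside 19.7%) where it was above it before (30.1%, beside 24.2%), and 14 with a q-value of at most 0.05 (19.2%, beside 19.1% of all protein-coding genes). Leaving out a replicate, with support in both others required, gave 12 to 13 (16.4% to 17.8%, beside 12.9% to 15.1%). Other windows and series lists gave 15 to 26 (20.5% to 35.6%, beside 18.4% to 28.4%). The mean per library, 15.3, became 10 with a 200 bp window. Shared promoters at bound members numbered 8 with the starts at most 250 bp apart, a limit not applied to other genes. The median signal of 183 became 132 over all peaks in the window, and 219 in the series list of 12445 peaks, 283 in that of 8933 and 283 in that of 9110, where signals are on their own scales. The 12 members found in all 3 libraries stayed 12 when the library summit had to lie within 100 bp, and 12 to 13 with a replicate left out. The setting restricted to genes with 1 annotated start was chosen after seeing the data and gave 18 of 67 (26.9%, beside 17.0%). No paired analysis was possible because there was 1 group. The cause of these changes was not tested.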
